A study of Mus musculus with 24 samples.

Results

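The genes described here code for the 3 chains of complement C1q (C1qa, C1qb, C1qc), complement C3, the receptors for complement fragments (C3ar1, C5ar1, and Itgam with Itgb2, which together form complement receptor 3) and the C1 inhibitor Serping1. They were chosen by name, with earlier results of these data known, 9 of 18193 genes at most. Shares of all genes set beside them are therefore a description. Of the 9, 8 had a probe set assigned to that gene alone, 13 probe sets in all. C3 is not analysed here. Where a gene had several probe sets, the brightest one on average stood for it. RNA came from forebrain of mice aged 70, 80 or 150 days, with 4 mice and 4 arrays in each of 6 groups. TgCRND8 mice carried the transgene APPSwe/Ind, human APP with the Swedish and Indiana mutations, and controls were littermates without it at the same ages. The labels name neither the promoter of the transgene, known as that of the hamster prion protein gene, nor the sex of the mice. All values are log2 signals, so a difference of 1 is a doubling, and the number of mice limits their precision.

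C1q is the recognition molecule of the classical complement pathway. It is built from 3 related chains, circulates with the proteases C1r and C1s, and starts a cascade that deposits fragments of C4 and C3 on its target, while the C1 inhibitor blocks those proteases. Phagocytes bind deposited C3 fragments through complement receptor 3 and sense the released peptides C3a and C5a through C3ar1 and C5ar1. In the brain, microglia make most C1q, and C1q is known from amyloid plaques and from synapses that microglia remove.

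Array medians over all probe sets were 4.28 to 4.38. All 9 neuron markers and all 13 measured microglia markers averaged above the highest lower quartile of any array (3.32); they mark brain tissue, and no marker of a brain region was examined. Border macrophage, monocyte and neutrophil markers averaged 3.39 to 3.63, 3.76 to 4.08 and 3.52 to 3.94 per array. Of the receptors, Itgam lay below its array's lower quartile in 12 of 24 arrays and C5ar1 in 3, so their levels were close to the dimmest part of the array and their differences are uncertain in size.

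At day 150 all 3 C1q chain genes were higher in TgCRND8 forebrain than in controls, and 2 of them, C1qa and C1qc, passed the test over all genes. C1qa was higher by 0.54 log2, a 1.45-fold difference, and C1qc by 0.69, a 1.61-fold difference. C1qb was higher by 0.55 and just missed the threshold. These were the 2 of 8 genes past an adjusted p of 0.05, against 0.121% of all genes tested that were called higher at this age, and no gene was called lower. The median difference was 0.36 over the 8 genes and 0.00044 over all genes. In bulk tissue, more cells of a type and more RNA per cell cannot be told apart.

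C1qa, coding for the A chain, read 7.89, 7.77, 7.89 and 7.89 in TgCRND8 mice of day 150, against 7.24, 7.28, 7.43 and 7.32 in their control littermates. The TgCRND8 arrays lay close together and all above the controls. The difference was 0.54 (standard error 0.085, 95% interval 0.37 to 0.72), with an adjusted p of 0.00258 by limma with Benjamini-Hochberg adjustment. C1qc, coding for the C chain, read 7.08, 7.03, 7.20 and 6.96 in TgCRND8 mice of day 150, against 6.23, 5.98, 6.63 and 6.66 in controls. Here the controls were spread widely, with a pair of low arrays and a pair near the younger controls, and the TgCRND8 arrays were again all above them. The difference was 0.69 (standard error 0.11, 95% interval 0.46 to 0.92; adjusted p = 0.00278 by limma), and without the lowest control array, number 2, it was 0.56 (adjusted p = 0.0188 by limma). In a fit of the 8 day 150 arrays alone, where the spread comes from those arrays only, C1qc missed the threshold (adjusted p = 0.0528 by limma).

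C1qb, coding for the B chain, read 7.66, 7.69, 7.98 and 7.87 in TgCRND8 mice of day 150, against 7.15, 7.22, 7.26 and 7.38 in controls. The groups did not overlap. The difference was 0.55 (standard error 0.12, 95% interval 0.31 to 0.79), with an adjusted p of 0.0538 by limma, the 23rd smallest p of all genes. With arrays of the same number paired within each age, C1qb passed (adjusted p = 0.00344 by limma), and it passed with all probe sets of each gene averaged (adjusted p = 0.0355). In each of the 8 fits with 1 day 150 array left out it did not pass (adjusted p from 0.0644 to 0.334). The other C1qb probe sets carry the suffix x in their names, which Affymetrix gives to sets that may bind other transcripts. They were higher by 0.44 (6.39 against 5.95) and 0.60 (5.82 against 5.23). Neither passed in a fit of all probe sets (adjusted p = 0.316 and 0.172 by limma). C1qa and C1qc had no second probe set.

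**Figure D1:**
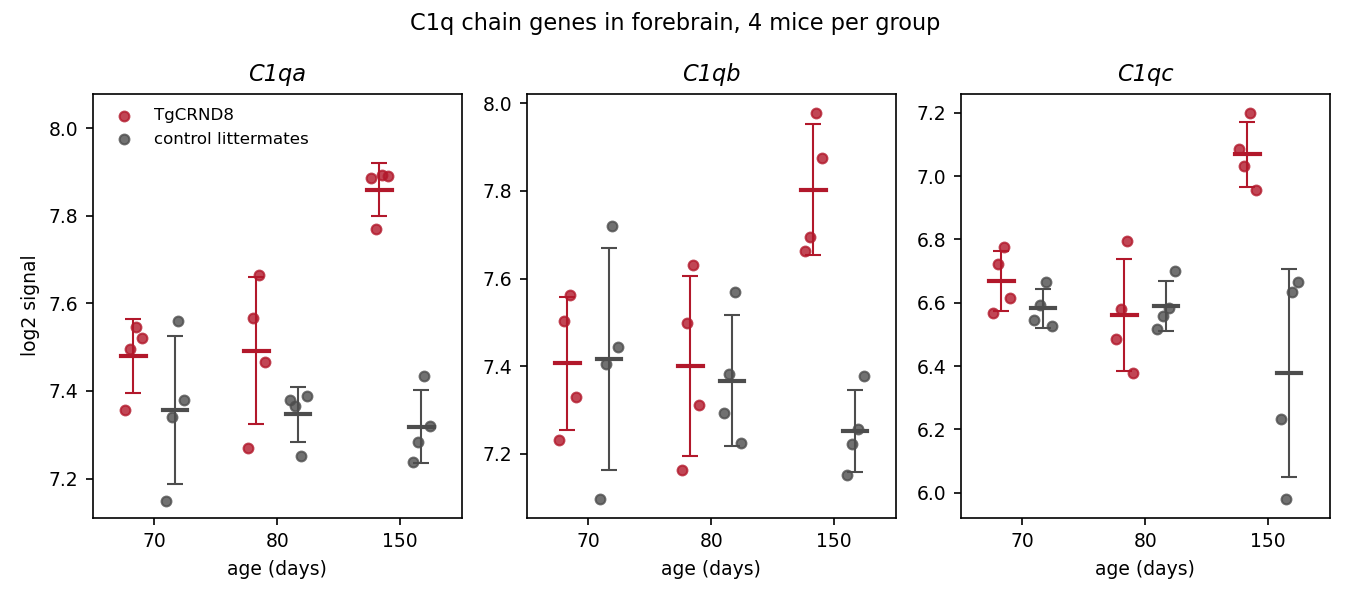
Log2 signal of C1qa, C1qb and C1qc in each of 24 forebrain arrays by age in days, with TgCRND8 mice left of control littermates. Points are mice, thick lines group means and error bars SD (n = 4); at day 150 the TgCRND8 points of each gene lie above all control points, and the C1qc controls spread from 5.98 to 6.66.

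The 3 C1q genes are consecutive protein-coding genes on mouse chromosome 4 in the RefSeq table. RefSeq promoter windows, from 250 bases before to 50 bases after the start of the gene in GRCm38.p6, were given for 6 of the 9 genes: C1qb, C1qc, C3, C3ar1, C5ar1 and Itgam. C1qa, Itgb2 and Serping1 had no entry. The windows of C1qb, C1qc and Itgam are printed because they hold the purine-rich core GAGGAA, a form of the site bound by PU.1, the transcription factor that defines macrophages and microglia. Capitals mark GAGGAA on either strand, so that it appears as TTCCTC when it is on the other one.
C1qb, chr4:136886151-136886450, minus strand: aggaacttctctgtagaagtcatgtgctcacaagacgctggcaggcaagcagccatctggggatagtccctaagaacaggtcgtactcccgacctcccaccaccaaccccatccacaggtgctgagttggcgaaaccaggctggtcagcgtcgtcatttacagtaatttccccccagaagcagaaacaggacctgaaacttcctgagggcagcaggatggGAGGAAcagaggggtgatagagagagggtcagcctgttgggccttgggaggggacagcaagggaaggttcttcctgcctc
C1qc, chr4:136892865-136893164, minus strand: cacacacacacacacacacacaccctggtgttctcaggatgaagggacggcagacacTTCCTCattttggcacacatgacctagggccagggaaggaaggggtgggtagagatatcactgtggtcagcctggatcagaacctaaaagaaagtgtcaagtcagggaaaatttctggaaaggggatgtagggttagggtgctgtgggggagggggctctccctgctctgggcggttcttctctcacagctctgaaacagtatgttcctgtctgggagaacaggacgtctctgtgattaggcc
Itgam, chr7:128062390-128062689, plus strand: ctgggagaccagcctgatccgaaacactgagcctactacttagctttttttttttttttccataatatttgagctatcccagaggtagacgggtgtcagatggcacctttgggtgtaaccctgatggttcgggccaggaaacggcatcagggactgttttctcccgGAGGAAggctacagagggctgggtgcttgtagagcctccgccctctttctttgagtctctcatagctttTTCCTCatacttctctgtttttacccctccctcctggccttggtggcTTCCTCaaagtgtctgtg

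The core begins 30 bases before the start of C1qb and 193 bases before that of C1qc, and Itgam holds 3 copies. GAGGAA was found in 28.3% of all 32851 windows of this length, searched on both strands, so its presence in 3 of 6 windows is a description. The C/EBP motif TTNNGCAA was found in the C3 window, an NF-kB motif of 10 letters in that of C3ar1, CCAAT in that of C5ar1, and TATAAA in those of C3 and C3ar1; they were held by 10.8%, 1.63%, 37.4% and 13.6% of all windows. TATAAA begins at base 15 after the start of C3 and 235 bases before that of C3ar1. TTCNNNGAA, a form of the STAT site held by 8.3% of windows, was in 0 of the 6.

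At the younger ages the C1q genes did not pass between genotypes, and the intervals bound how large a difference these arrays could hide. At day 70 C1qa read 7.36, 7.50, 7.55 and 7.52 in TgCRND8 mice, against 7.15, 7.34, 7.56 and 7.38 in controls. The ranges overlapped, with a difference of 0.12 (95% interval -0.05 to 0.30). At day 80 it read 7.27, 7.57, 7.66 and 7.47 in TgCRND8 mice, against 7.38, 7.37, 7.25 and 7.39 in controls. At that age 3 of 4 TgCRND8 arrays were above all controls and the fourth was near the lowest, for a difference of 0.15 (95% interval -0.03 to 0.32). C1qb differed by -0.01 at day 70 (95% interval -0.25 to 0.23) and by 0.03 at day 80 (-0.20 to 0.27). C1qc differed by 0.09 at day 70 (-0.14 to 0.32) and by -0.03 at day 80 (-0.26 to 0.20). By limma adjusted p was 0.9997 at day 70 and 0.9996 at day 80 for each of the 8 genes, with 0% of all genes called at either age. At an unadjusted p under 0.05 there were 591 genes at day 70 and 685 at day 80, among them 1 of the 8 genes, Itgam at day 80, where 2.49% of all genes were higher by that measure.

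Averaged over the 3 ages, C1qa was the only one of the 8 genes past the threshold, higher by 0.27 (standard error 0.049; adjusted p = 0.0301 by limma, 12 arrays per genotype), against 0.033% of all genes called higher. C1qc was higher by 0.25 (adjusted p = 0.41 by limma) and C1qb by 0.19 (adjusted p = 0.99965). C1qa passed in 8 of the 24 fits with 1 array left out, with adjusted p from 0.00527 to 0.0892 by limma. It missed the threshold without TgCRND8 array 2, 3 or 4 or control array 1, 2 or 4 of day 70, without TgCRND8 array 2 or 3 or control array 2, 3 or 4 of day 80, and without TgCRND8 array 1, 3 or 4 or control array 1 or 2 of day 150. With same-numbered arrays paired within each age it was lost too (adjusted p = 0.0508 by limma).

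The change of the genotype difference, day 150 less the mean of days 70 and 80, was 0.66 for C1qc (standard error 0.14), 0.54 for C1qb (0.14) and 0.41 for C1qa (0.10). Their 95% intervals lay above 0, but none of the 8 genes passed over all genes, where 0.011% were called higher (adjusted p = 0.176, 0.529 and 0.493 by limma for C1qc, C1qb and C1qa). At an unadjusted p under 0.05 there were 1047 genes in all, and 2.28% of all genes were higher, among them the 3 C1q genes and Itgb2. In TgCRND8 mice C1qa was higher at day 150 than at day 70 by 0.38, C1qb by 0.40 and C1qc by 0.40, and than at day 80 by 0.37, 0.40 and 0.51; for each of the 3 genes all 4 arrays of day 150 lay above all 4 of either younger age. By that measure 1.22% of all genes lay apart against day 70 and 1.1% against day 80. None passed (adjusted p from 0.116 to 0.782 by limma), with 0.0824% of all genes called higher against day 70 and 0.022% against day 80.

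In control mice the level of the C1q genes at day 150 was the lowest of the 3 ages. C1qc averaged 6.38 ± 0.33 in controls of day 150 and 6.58 ± 0.06 in those of day 70 (SD, n = 4 each), a difference of -0.20 (95% interval -0.44 to 0.03). C1qb averaged 7.25 ± 0.09 in controls of day 150 and 7.42 ± 0.25 in those of day 70, a difference of -0.16 (-0.40 to 0.07). C1qa averaged 7.32 ± 0.08 in controls of day 150 and 7.36 ± 0.17 in those of day 70. None of these age differences passed (adjusted p from 0.658 to 0.932 by limma, with 0.022% of all genes called, each lower). Over the 6 groups TgCRND8 of day 150 was highest and controls of day 150 lowest for each C1q gene. The other 4 groups overlapped with one another and with controls of day 150, and group means spanned 0.54 for C1qa, 0.55 for C1qb and 0.69 for C1qc, against pooled within-group SDs of 0.11, 0.17 and 0.17.

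Among the receptors, both chains of complement receptor 3 were higher in every TgCRND8 array of day 150 than in any control, but neither passed. Itgb2, the shared beta 2 integrin chain also known as CD18, read 4.27, 3.84, 3.89 and 4.08 in TgCRND8 mice of day 150, against 3.70, 3.75, 3.38 and 3.77 in controls. The gap between the lowest TgCRND8 and the highest control array was narrow beside the spread within each group. The difference was 0.37 (standard error 0.11, 95% interval 0.15 to 0.59; adjusted p = 0.563 by limma). Itgam, the alpha chain CD11b, read 3.27, 3.44, 3.23 and 3.69 in TgCRND8 mice of day 150, against 3.14, 3.09, 3.16 and 3.18 in controls. Each of these control values lay below the lower quartile of its own array (3.18 to 3.27), so the gap above them is uncertain. The controls lay close together and the TgCRND8 arrays were spread above them, for a difference of 0.27 (95% interval 0.04 to 0.49; adjusted p = 0.999 by limma). With the 3 C1q genes, 5 of the 8 genes had all 4 TgCRND8 arrays above all 4 controls at day 150, against 1.53% of all genes, and 6 of the 8 had an unadjusted p under 0.05 in the higher direction, against 1.97% of all genes.

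C3ar1, the receptor for the C3a peptide, was higher by 0.35 at day 150 (95% interval 0.04 to 0.65; adjusted p = 0.999 by limma). It read 4.26, 4.50, 4.01 and 3.95 in TgCRND8 mice of day 150, against 3.91, 3.80, 3.96 and 3.64 in controls, so that 3 of 4 TgCRND8 arrays were above all controls. A second probe set was higher by 0.33 (3.87 against 3.54), and the third averaged below the lowest lower quartile of any array (3.15) in every group, so its difference is not given. C5ar1, the receptor for C5a, read 3.54, 3.31, 3.31 and 3.21 in TgCRND8 mice of day 150, against 3.47, 3.37, 3.58 and 3.29 in controls. It was the one gene of the 8 with a lower mean there, by 0.09 (95% interval -0.25 to 0.08), and the groups overlapped in both directions. Its second probe set also averaged below that quartile in every group.

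At day 80 Itgam, Itgb2 and C3ar1 had positive differences, and none passed. Itgam read 3.13, 3.57, 3.46 and 3.41 in TgCRND8 mice of day 80, against 2.99, 3.37, 3.14 and 3.05 in controls, with 3 of 4 TgCRND8 arrays above all controls. The difference was 0.26 (95% interval 0.03 to 0.48), beside 0.27 at day 150 and -0.0043 at day 70. Itgb2 differed by 0.17 at day 80 (-0.05 to 0.38) and C3ar1 by 0.22 (-0.09 to 0.52). Within TgCRND8, all 4 Itgb2 arrays of day 80 (3.77 to 4.07) lay above all 4 of day 70 (3.46 to 3.70), by 0.29 (95% interval 0.07 to 0.51; adjusted p = 0.848 by limma). Groups lay apart in this way for 1.35% of all genes, and 0% were called between these ages, with 1039 at an unadjusted p under 0.05. In controls Itgb2 averaged 3.75 ± 0.12 at day 80 and 3.68 ± 0.16 at day 70 (SD, n = 4 each). C5ar1 differed between genotypes by 0.06 at day 70 and 0.04 at day 80.

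Serping1, the C1 inhibitor, which fibroblasts and endothelium also make, did not pass at any age. It read 5.42, 5.64, 5.39 and 5.55 in TgCRND8 mice of day 150, against 5.18, 5.43, 5.50 and 5.49 in controls, and the groups overlapped. The difference was 0.10 at day 150 (95% interval -0.16 to 0.36), -0.14 at day 80 (-0.41 to 0.12) and -0.16 at day 70 (-0.42 to 0.10). The markers of meninges and fibroblasts had a median difference of -0.02 at day 150 (4 of 10 higher) and those of endothelium and pericytes one of -0.06 (3 of 9 higher).

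**Figure D2:**
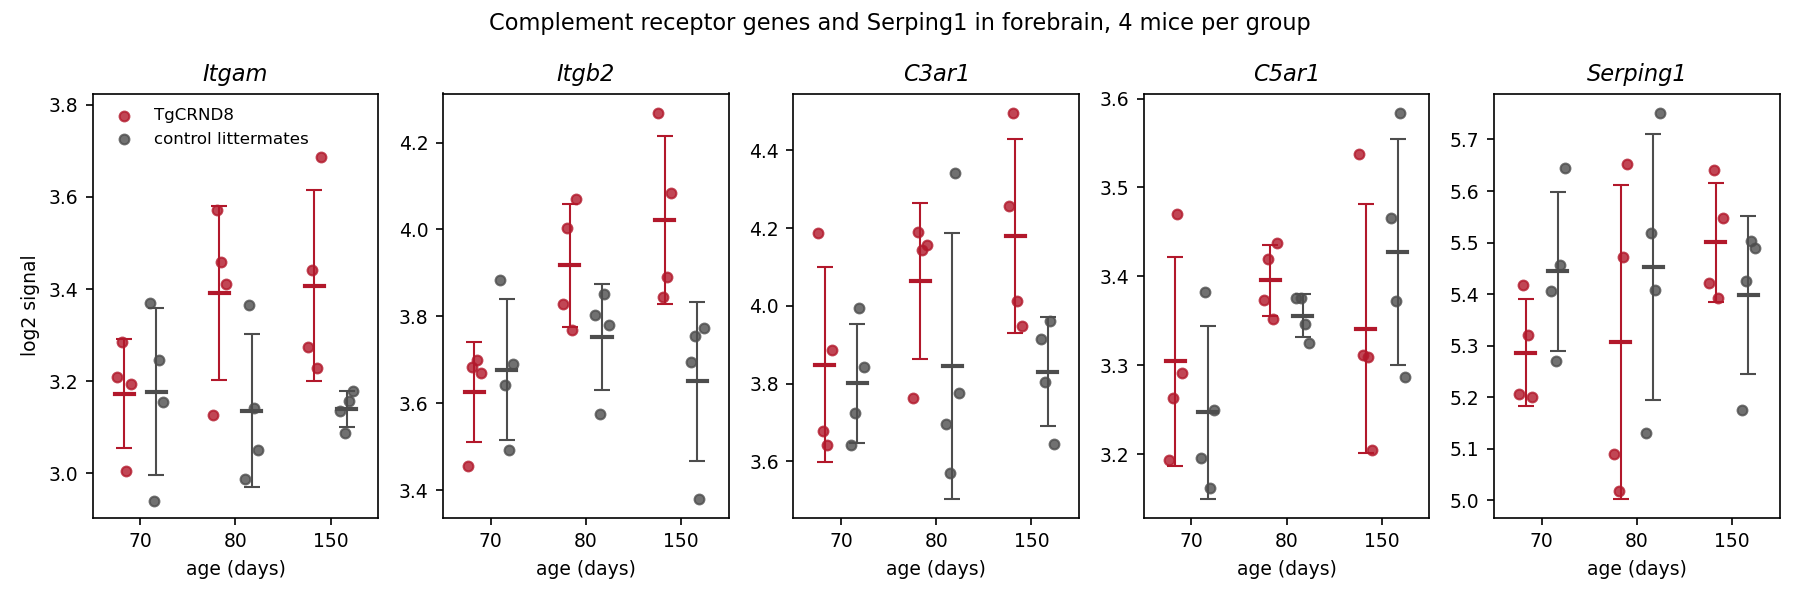
Log2 signal of Itgam, Itgb2, C3ar1, C5ar1 and Serping1 in each of 24 forebrain arrays by age in days, with TgCRND8 mice left of control littermates. Points are mice, thick lines group means and error bars SD (n = 4); at day 150 the TgCRND8 points of Itgam and Itgb2 lie above all control points and those of C5ar1 and Serping1 overlap with them.

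**Figure D3:**
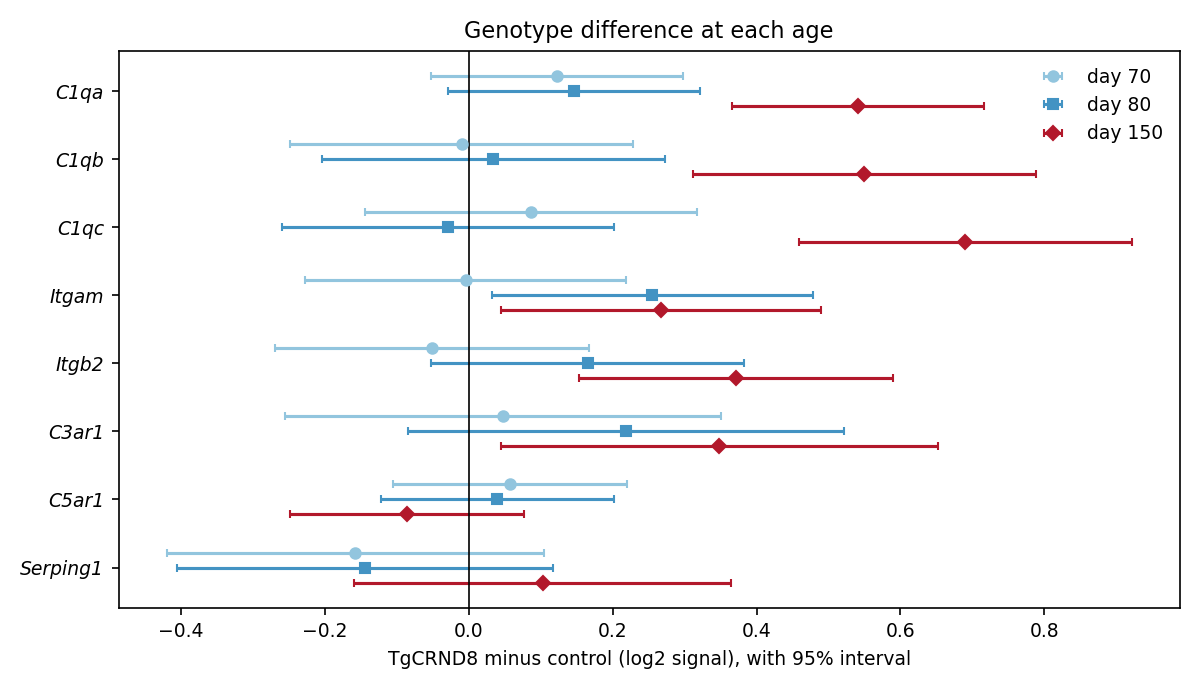
Difference in log2 signal, TgCRND8 minus control, for each of the 8 genes at days 70, 80 and 150, with the 95% interval of the limma fit over all 24 arrays. The C1q genes lie between -0.03 and 0.15 at the younger ages and between 0.54 and 0.69 at day 150, while Itgam reads 0.26 at day 80 and 0.27 at day 150.

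Markers of microglia were mostly higher at day 150, and their part in the C1q result was not tested beyond the values given here. Of 13 measured microglia markers 10 stood above control and 3 below it at day 150, the median being 0.13, and 0 passed by limma. The direction was much the same at the younger ages. At day 70, 10 were higher and 3 lower (median 0.06), and at day 80, 9 were higher and 4 lower (median 0.04). The differences at day 150 ran from -0.26 for Slc2a5 to 0.52 for Gpr34. P2ry13 (-0.05) and Fcrls (-0.00034) were the others below control, and Cx3cr1, P2ry12 and Tmem119 lay at 0.10 to 0.11. The mean of the 13 markers per array was 5.78 to 5.96 in TgCRND8 mice of day 150 and 5.65 to 5.77 in controls. Of 11 markers of plaque-associated microglia, 11 were higher, 6 passed (Cst7, Tyrobp, Cd68, Trem2, Cd9 and Ctsd) and the median was 0.36. Of 9 reactive astrocyte markers 8 were higher, 3 passed (Gfap, Osmr and Vim) and the median was 0.38. Of all genes, 0.121% were called higher at day 150 and 50.1% had a positive difference. The marker lists were chosen with earlier results of these data known. Border macrophage markers had a median of 0.02 (4 of 7 higher), monocyte markers 0.01 (3 of 4 higher) and neutrophil markers -0.10 (2 of 11 higher).

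To set the genes against microglia markers of the same array, the mean of the 13 microglia markers was subtracted from each value, a step added after the data were seen. At day 150 C1qa stood 1.93 to 2.11 above that mean in TgCRND8 mice, against 1.52 to 1.69 in controls. The difference was 0.40 for C1qa, 0.41 for C1qb and 0.55 for C1qc, and for each all 4 TgCRND8 arrays lay above all 4 controls, as they did before the subtraction. For Itgb2, C3ar1 and Itgam the groups overlapped on this scale, with mean differences of 0.23, 0.20 and 0.12. Between arrays of the same number, TgCRND8 was above control in 4 of 4 pairs for Itgb2 (0.036 to 0.45) and for each C1q gene, and in 3 of 4 pairs for C3ar1 (-0.16 to 0.64) and Itgam (-0.14 to 0.32). At days 70 and 80 the C1q differences on this scale lay between -0.09 and 0.11. These values are a description, and no test of them is used here.

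**Figure D4:**
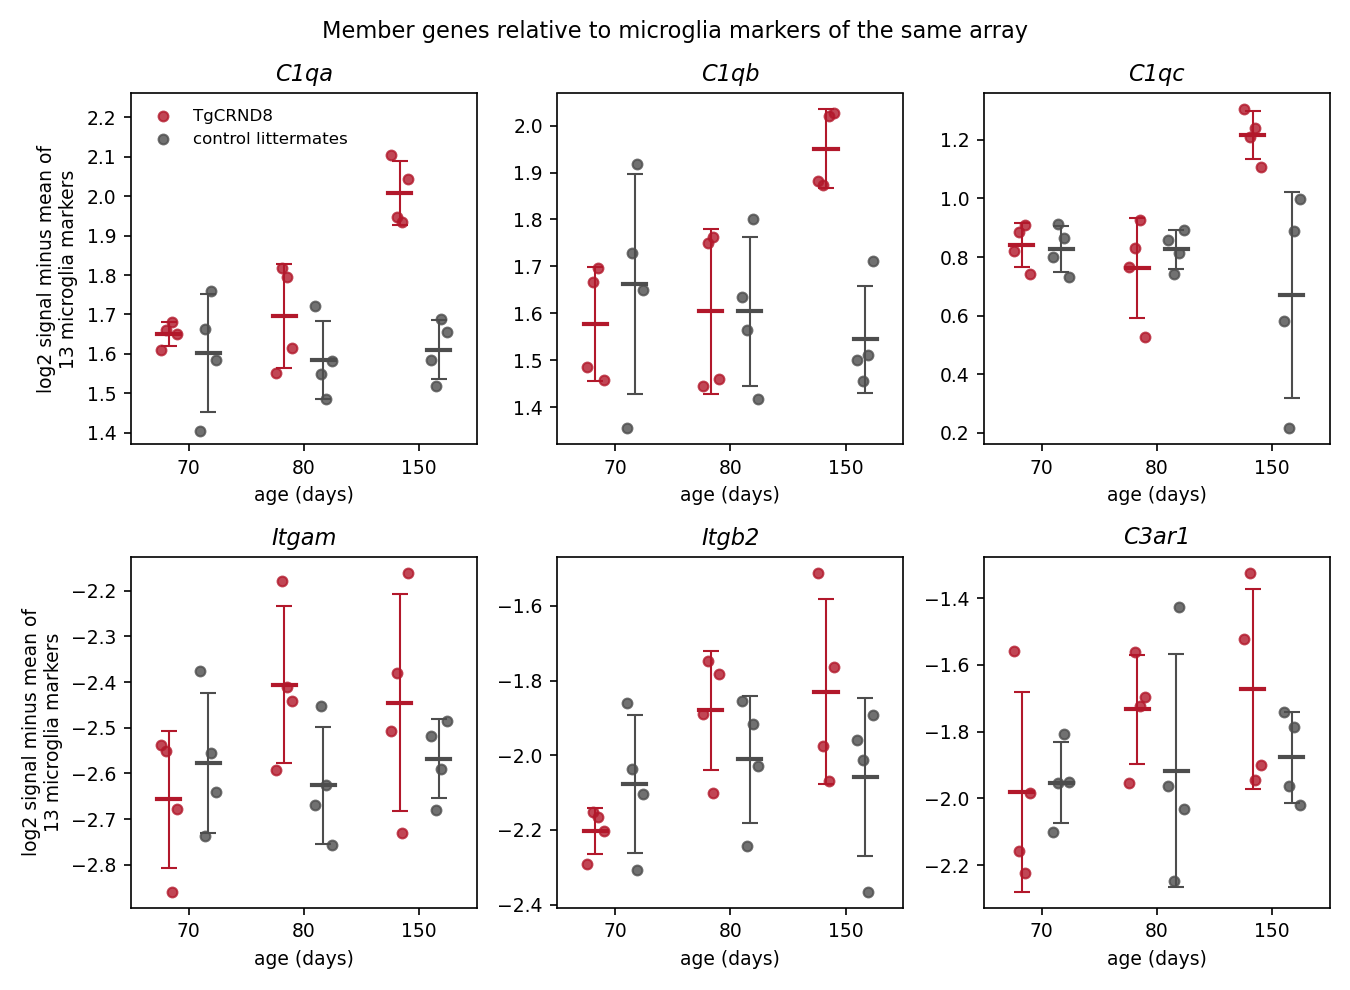
Log2 signal of 6 genes minus the mean of 13 microglia markers on the same array, by age in days, with TgCRND8 mice left of control littermates. Points are mice, thick lines group means and error bars SD (n = 4); at day 150 the TgCRND8 points of the C1q genes lie above all control points, and those of the receptor genes overlap with them.

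None of the other measured complement genes passed by limma. With 0.121% of all genes called higher at day 150, this is near the share over all genes and does not set them apart. Of 59 listed genes 48 were measured; at day 150, TgCRND8 was above control for 25 and below for 23, the median being 0.01, and 0 passed in any comparison between genotypes or ages. By role, medians at day 150 were -0.03 for 11 recognition molecules and proteases, -0.07 for 9 components, -0.08 for 7 soluble regulators, 0.04 for 12 membrane regulators and 0.01 for 9 other receptors and C1q-binding proteins. C1s1, a protease that works with C1q, was dim (3.03 against 3.11) and differed by -0.08. C2, another component of the classical pathway, differed by -0.14, and factor B, its counterpart in the alternative pathway, by 0.16. C4b, Cfd and C5ar2 are not analysed here.

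Components of other branches did not pass either, which again is near the share over all genes. Properdin (Cfp), which stabilises the alternative convertase, differed by 0.02 at day 150 and by -0.26 at day 80, and C5 (Hc) by -0.07 at day 150. Of the regulators, clusterin (Clu), a secreted chaperone that also binds the terminal complex, differed by 0.14 (11.79 against 11.65), factor I (Cfi) by -0.12, the rodent C3 convertase inhibitor Crry (Cr1l) by 0.08, Cd59a by -0.10 and Cd55 by 0.19. Of the genes for neuronal proteins with complement control domains, Csmd1 differed by 0.08, Susd4 by 0.11 and Sez6 by 0.05. Itgax, which pairs with Itgb2 to form complement receptor 4, had the largest difference of the 48 (0.33; adjusted p = 0.546 by limma), and Vsig4 (0.07), Cr2 (-0.08), Cd93 (-0.04) and C1qbp (0.03) were small. Genes that share the C1q domain but belong to synaptic organisers, C1ql1 to C1ql3 and the cerebellins, had a median of -0.07 over 7.

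**Figure D5:**
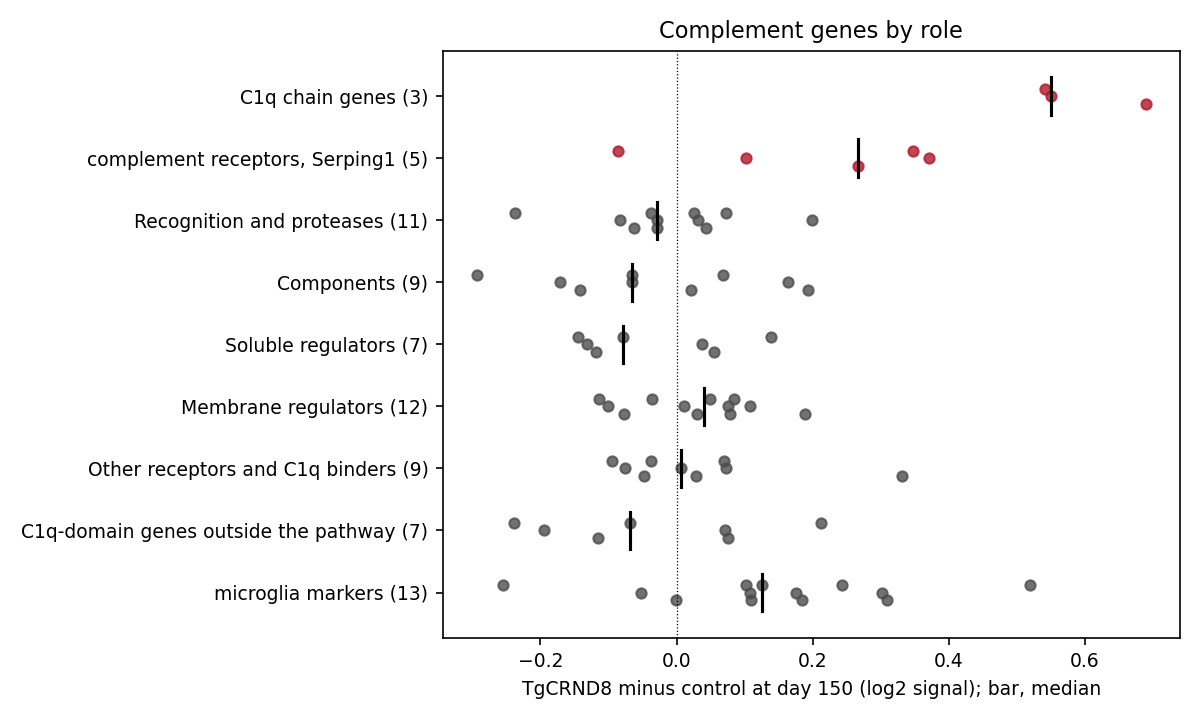
Difference in log2 signal at day 150, TgCRND8 minus control, for the C1q genes, the receptors with Serping1, the other complement genes by role and the microglia markers. Each point is a gene, bars are medians and the number of genes is in brackets; the C1q genes lie at 0.54 to 0.69 and the other complement genes, Itgax at 0.33 aside, within 0.30 of 0.

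Among all genes, those whose levels ran most like C1qa over the 24 arrays were Gfap (Pearson r = 0.943, Spearman 0.942), Tyrobp (0.881), Ctsz (0.879), Ctss (0.855) and C1qb (0.854). With the 6 group means subtracted, which removes genotype and age, r was 0.777 for Gfap, 0.714 for C1qb, 0.599 for Tyrobp, 0.542 for Ctsz and 0.425 for Ctss. The points share the RNA sample and the array, so the values describe these arrays only. Between the C1q genes r after subtraction was 0.48 for C1qa with C1qc and 0.446 for C1qb with C1qc. Between any C1q gene and any receptor it lay between -0.305 and 0.156, and between Itgam and Itgb2 it was 0.00707. Itgb2 ran most like 1810030O07Rik (0.712), Sdad1 (0.71), Selplg (0.699), Ccdc77 (0.692) and Ldhd (0.681), and Serping1 most like Stk39 (0.714), Pax7 (0.678), Pcolce2 (0.654), Ifitm10 (0.653) and Tbx4 (0.65). After subtraction of the group means, r lay between 0.519 and 0.781 for those of Itgb2 and between 0.598 and 0.787 for those of Serping1. The genes were picked as the highest of 18193 on these same arrays, and the level that unrelated genes reach was not computed. None of these partners of Itgb2 and Serping1 passed between genotypes at day 150 (adjusted p = 0.9995 for each by limma).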

How the data were processed

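RNA from the forebrain of 24 mice was hybridised to Affymetrix mouse arrays, 1 array per mouse, per the labels' protocols. The authors deposited log2 signals for 45101 probe sets; how they were summarised and normalized is not stated by the labels or the table. Without the array controls 45037 probe sets were left, of which 34945 had 1 gene symbol in the platform annotation, 932 several and 9160 none. Each of 18193 genes was represented by its brightest probe set. Symbols were checked against the RefSeq table and 0 changed. Groups were compared in 1 limma fit (version 3.58.1, R 4.3.3) of 6 group means, with 18 residual degrees of freedom and Benjamini-Hochberg adjustment over all genes at a threshold of 0.05. The p-values measure the spread between the mice of a group. The script was tested on simulated data. Named genes were all 9 members and, of the other complement genes, a fixed set plus any past the threshold; likeness was given for C1qa, Itgb2 and Serping1. Members and lists were chosen with earlier results of these data known. Microglia markers other than by list counts were named after their values were seen. Alternatives covered normalization, dim genes, probe set choice, variance model, array weights, the replicate number, Xist as covariate, the arrays fitted, the threshold and each array left out.

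Arrays of the same number deviated together at day 150 (correlations of deviations from the group means 0.256, 0.194, 0.137 and 0.217) and not in every pair at day 70 (-0.321 to 0.292) or day 80 (-0.231 to 0.479). The labels do not say what a number shares, so pairing was judged from the data, where every pair deviated together at day 150 only. The fit paired within each age used the pairs of days 70 and 80 as well. Its result for the average over ages therefore also rests on pairs that did not all deviate together.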

Additional observations from a re-analysis of the deposited data

Results flagged for a closer look

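In 4 of 48 groups of 4 arrays, 1 array stood apart from the others by Dixon's criterion, which chance gives in about 1 group in 20. C1qa read 7.77 in TgCRND8 array 2 of day 150, against 7.89 in each of the others, a small gap because those arrays nearly coincided. C1qa read 7.25 in control array 3 of day 80, below 7.37 to 7.39 in the other controls. C3ar1 read 3.76 in TgCRND8 array 1 of day 80, below 4.14 to 4.19 in the others of its group. Itgb2 read 3.46 in TgCRND8 array 1 of day 70, below 3.67 to 3.70 in the others.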

How the results depend on the processing

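At day 150 the number of the 8 genes past the threshold was 2 to 3 under every alternative run. C1qa passed in all 8 fits with 1 day 150 array left out (0.51 to 0.58) and C1qc in all 8 (0.56 to 0.79). C1qb passed in 8 of 13 other settings. Among these is the main fit at a cutoff of 0.10, passed by the same adjusted p of 0.0538 by limma. The replicate block within each age and the fit without both day 80 arrays numbered 1, also among them, were added after seeing the data. Averaged over the 3 ages the number was 1, and 0 with the replicate block within each age, an alternative chosen after seeing the data; with 1 array left out it was 0 to 1. For TgCRND8 of day 150 against day 70 it was 0, and 1 (C1qa) with array weights and with the replicate block. With the replicate block at day 150 the number was 3, with C1qb at adjusted p = 0.00139 by limma. The block changed no other call among the 8 genes at that age. The C5ar1 difference averaged over ages (0.0035) turned to -0.0048 with quantile normalization, -0.0014 with all probe sets averaged and -0.013 with array weights, and ran from -0.018 to 0.021 with 1 array left out. The cause was not tested in these cases. Of 255 counts 236 were within 1.5 times the reported one, and of 732 single gene values 696 kept their direction and side of the threshold. Apart from day 150 and the average over 3 ages, every reported count was 0, so most of these matches are 0 against 0. Most single gene values were likewise uncalled ones that stayed uncalled. The call of C1qa averaged over 3 ages was lost in 17 of its 36 alternatives. Without the dimmest 40% of genes, C3ar1, C5ar1, Itgam and Itgb2 were not tested; a fit of only the arrays compared was not run for the mean and the change over ages. The dim signals of Itgam and C5ar1 limit what these arrays can show of them.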
